A study of Mus musculus with 15 samples.

Results

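The genes of the type I interferon response are switched on when a cell senses foreign or misplaced nucleic acid or receives interferon from a neighbouring cell. Interferon alpha and beta bind the receptor chains Ifnar1 and Ifnar2, and the kinases Jak1 and Tyk2 then activate the factor ISGF3, of which Stat2 and Irf9 are subunits and which binds interferon-stimulated response elements in promoters. In the liver, hepatocytes, Kupffer cells and infiltrating monocytes can all express such genes. The genes described here are Ifit1, Ifit2 and Ifit3, which encode tetratricopeptide proteins of which Ifit1 binds viral RNA, Oasl1 and Oasl2, which are relatives of the oligoadenylate synthetases, Rsad2 (viperin), an antiviral radical SAM enzyme, Isg15, a ubiquitin-like modifier, Usp18, the protease that removes Isg15 and damps receptor signaling, and Irf7, a transcription factor for interferon alpha genes.

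These 9 genes were selected by their symbols in the array's annotation, keeping clusters with a single symbol and, for each gene, the brightest one. By this rule 8 of the 9 were measured, among 19938 genes in all. Isg15 has no value here, since its only cluster is shared with the symbol Gm9706. In RefSeq's GRCm38.p6 the Ifit genes lie together on chromosome 19 (Ifit2 at chr19:34550550-34576534, Ifit3 at chr19:34583119-34588982 and Ifit1 at chr19:34640889-34650009), and Oasl2 (chr5:114896926-114912245) lies near Oasl1 (chr5:114923143-114937911). Rsad2 is at chr12:26442743-26456452, Irf7 at chr7:141263183-141266499 and Usp18 at chr6:121245906-121270917.

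The arrays held liver RNA of male C57BL/6J mice, and the labels name no transgene or deletion. Of 5 groups of 3 arrays each, the one labelled Ath+HF+BCAA 68w came from mice given an atherogenic and high-fat (Ath+HF) diet for 60 weeks and killed at week 68, with leucine, isoleucine and valine added to 3% of the diet as the branched-chain amino acid (BCAA) supplement. The group labelled Ath+HF 68w had the same diet without the supplement for the same time. Mice of the groups Ath+HF+BCAA 38w and Ath+HF 38w had these diets for 30 weeks and were killed at week 38, and the basal diet 38w group had a basal diet for 30 weeks. The Ath+HF diet is a model of nonalcoholic steatohepatitis, and the study asked what the supplement changes in it. The sources used here do not say whether each array held a separate mouse, so p-values measure the spread between arrays, which may be technical. No basal diet arrays of 68w were used here, so age, time on diet and any processing of the 68w arrays apart from the 38w arrays cannot be told apart in a comparison of 68w with 38w.

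All results at 68w rest on how the arrays of that age were labelled. In Ath+HF 68w against basal diet 38w, limma called 9 of 18 markers of macrophages and monocytes lower and 1 higher. Of all genes, 19.1% were called lower and 19% higher there. The summed linear signal of 9 stellate cell and fibroblast markers was 6240 to 7760 in Ath+HF 68w, against 6787 to 8083 in basal diet 38w. In Ath+HF+BCAA 68w it was 11073 to 11999. Were the labels of the 2 groups at 68w exchanged, each difference between them would have the opposite sign, and each comparison of a 68w group with a 38w group, or of the BCAA difference at 68w with that at 38w, would rest on the other group's arrays. Whether they were exchanged was not tested. Hepatocyte markers were bright on all arrays, with a summed linear signal over 8 markers of 80079 to 97243. Array medians were 6.91 to 7.16 on the log2 scale, no arrays had identical values, and the number of arrays limits the precision.

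Promoters of 8 of the 9 genes, 9 windows in all since Ifit2 has 2 starts, were found in a RefSeq table of GRCm38.p6 that gives 250 bases before and 50 after each start. A core of the interferon-stimulated response element, GAAANNGAAA read on both strands, was found in 44.4% of these windows and in 3.44% of the 32851 windows of the table. Rsad2 had 1 match, Ifit1 and Ifit3 had 2 each and Isg15 had 3, which overlap each other. The windows of Ifit2, Irf7, Oasl1 and Oasl2 had no match to these letters. The starts used for them lie inside the annotated spans given above, and 1 window of Ifit2 (chr19:34550838-34551137) lies wholly inside. Fewer than 250 bases before these spans were therefore searched, so the lack of a match holds for the windows only. Stretches of 130 bases are shown, 5′ to 3′ and in lower case with matches in capitals, for a pair of genes with a match (Ifit1, chr19:34640759-34640888 on the plus strand, and Rsad2, chr12:26456453-26456582 on the minus strand) and for a pair without one that differed most between the 68w groups (Oasl1, chr5:114923013-114923142 on the plus strand, and Oasl2, chr5:114896796-114896925 on the plus strand). Each ends at the last base before the gene's annotated span.
Ifit1: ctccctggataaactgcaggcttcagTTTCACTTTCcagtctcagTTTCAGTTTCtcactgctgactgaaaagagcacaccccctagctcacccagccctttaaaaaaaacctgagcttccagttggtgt
Rsad2: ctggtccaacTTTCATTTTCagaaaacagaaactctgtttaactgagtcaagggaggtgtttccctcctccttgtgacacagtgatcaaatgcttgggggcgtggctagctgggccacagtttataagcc
Oasl1: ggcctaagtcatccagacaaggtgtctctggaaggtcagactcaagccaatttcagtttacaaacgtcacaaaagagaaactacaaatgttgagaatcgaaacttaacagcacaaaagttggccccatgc
Oasl2: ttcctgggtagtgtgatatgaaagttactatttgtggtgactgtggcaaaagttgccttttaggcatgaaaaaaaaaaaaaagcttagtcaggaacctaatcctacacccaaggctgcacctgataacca
In Ifit1 the matches begin 104 and 85 bases before the start and read TTTCACTTTC and TTTCAGTTTC, the motif on the opposite strand. Ifit3 held the same letters in the same order, beginning 156 and 122 bases before the start used for its window. That window (chr19:34583279-34583578) lies inside the annotated span of Ifit3 given above, and so do both matches. A match is a description of the sequence and was not tested as a binding site.

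At 68w, Ath+HF+BCAA arrays exceeded Ath+HF arrays in 7 of the 8 measured genes, against 19.8% of all genes called higher (limma, all 15 arrays, Benjamini-Hochberg adjusted p under 0.05 over 19938 genes). None was lower, against 16.4% of all genes. The differences reached 3.94-fold for Oasl1, and only Usp18 was not called. The median log2 difference was 1.36 over the 8 genes and -0.09 over all genes. For the same 7 genes the 3 arrays of each group did not overlap, as was the case for 25.9% of all genes in this direction and 32.8% in the other.

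Oasl1 encodes a synthetase-like protein without enzyme activity that in mice restrains translation of Irf7. Its log2 values were 11.10, 10.92 and 11.31 in Ath+HF+BCAA 68w, 9.34, 9.0 and 9.06 in Ath+HF 68w, 8.79, 8.30 and 8.75 in Ath+HF+BCAA 38w, 8.63, 8.57 and 8.42 in Ath+HF 38w, and 8.85, 8.99 and 8.78 in basal diet 38w. All arrays labelled Ath+HF+BCAA 68w lay more than a log2 unit above every other array. Oasl1 was higher in Ath+HF+BCAA 68w than in Ath+HF 68w by 1.98 (SE 0.14) on the log2 scale, with an adjusted p of 4.43e-08 from limma. It was also higher in Ath+HF 68w than in Ath+HF 38w, by 0.59 (SE 0.14, adjusted p = 0.0045 from limma), with no overlap of arrays, as in 26.8% of all genes in this direction. The order of group means, from high to low, was Ath+HF+BCAA 68w, Ath+HF 68w, basal diet 38w, Ath+HF+BCAA 38w and Ath+HF 38w. Of the neighbours in this order that were compared, Ath+HF 68w and basal diet 38w were not called different, nor were Ath+HF+BCAA 38w and Ath+HF 38w.

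Oasl2, which keeps oligoadenylate synthetase activity in mice, had log2 values of 10.14, 10.30 and 10.34 in Ath+HF+BCAA 68w, 8.73, 8.36 and 8.65 in Ath+HF 68w, 9.0, 8.76 and 8.97 in Ath+HF+BCAA 38w, 9.11, 8.87 and 8.59 in Ath+HF 38w, and 8.74, 8.38 and 8.58 in basal diet 38w. Here too the arrays labelled Ath+HF+BCAA 68w stood above all others, while the other 4 groups lay within a log2 unit of each other. The difference of Ath+HF+BCAA 68w from Ath+HF 68w was 1.68 (SE 0.14), or 3.2-fold, with an adjusted p of 2.13e-07 from limma. Unlike Oasl1, it was at -0.28 in Ath+HF 68w against Ath+HF 38w, which was not called (adjusted p = 0.133 from limma).

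Rsad2 converts CTP into a chain-terminating nucleotide and lies next to Cmpk2, a nucleotide kinase induced with it. Log2 values of Rsad2 were 10.44, 10.78 and 10.96 in Ath+HF+BCAA 68w, 9.51, 8.87 and 9.13 in Ath+HF 68w, 9.05, 9.08 and 9.16 in Ath+HF+BCAA 38w, 9.37, 8.92 and 8.85 in Ath+HF 38w, and 9.24, 9.69 and 9.13 in basal diet 38w. The lowest array of Ath+HF+BCAA 68w was above the highest of all other groups, which overlapped among themselves. Rsad2 was 2.94-fold higher in Ath+HF+BCAA 68w than in Ath+HF 68w (log2 difference 1.56, SE 0.19, adjusted p = 9.64e-06 from limma). Cmpk2 differed in the same comparison by 0.93 (SE 0.14, adjusted p = 9.29e-05 from limma).

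Irf7 had the tightest arrays of any of these genes in Ath+HF+BCAA 68w, at 10.44, 10.48 and 10.43, with 9.46, 8.99 and 9.40 in Ath+HF 68w, 9.77, 9.27 and 9.80 in Ath+HF+BCAA 38w, 9.69, 9.94 and 9.38 in Ath+HF 38w, and 9.70, 9.77 and 9.46 in basal diet 38w. Ath+HF+BCAA 68w exceeded every other array, and Ath+HF 68w held the lowest one. Irf7 was 2.25-fold higher in Ath+HF+BCAA 68w than in Ath+HF 68w (log2 difference 1.17, SE 0.17, adjusted p = 4.83e-05 from limma). Its differences of -0.39 in Ath+HF 68w against Ath+HF 38w and -0.37 in Ath+HF 68w against basal diet 38w were not called (adjusted p = 0.077 and 0.0951 from limma). Both were called with the array medians set equal and with array weights. With quantile normalization they were -0.28 and -0.26 and not called (adjusted p = 0.219 and 0.249 from limma).

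For Ifit2 a low group stood apart. Its log2 values were 8.20, 8.36 and 8.39 in Ath+HF+BCAA 68w, 6.93, 6.75 and 6.35 in Ath+HF 68w, 8.04, 7.67 and 8.15 in Ath+HF+BCAA 38w, 8.02, 7.95 and 7.57 in Ath+HF 38w, and 7.97, 7.60 and 7.01 in basal diet 38w. Every array labelled Ath+HF 68w was below every other array, and those labelled Ath+HF+BCAA 68w stood just above the 38w arrays of the same diet. Ifit2 was 3.12-fold higher in Ath+HF+BCAA 68w than in Ath+HF 68w (log2 difference 1.64, SE 0.21, adjusted p = 1.8e-05 from limma). It was 2.25-fold lower in Ath+HF 68w than in Ath+HF 38w (log2 difference -1.17, SE 0.21, adjusted p = 0.000682 from limma), where 20% of all genes were called lower. Its difference of 0.36 in Ath+HF+BCAA 68w against Ath+HF+BCAA 38w was not called (adjusted p = 0.192 from limma).

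Ifit1 and Ifit3 had smaller differences, with adjusted p-values near the threshold. Ifit1 values were 8.97, 9.09 and 9.62 in Ath+HF+BCAA 68w, 8.97, 8.27 and 8.30 in Ath+HF 68w, 8.37, 8.13 and 8.50 in Ath+HF+BCAA 38w, 8.68, 8.18 and 7.97 in Ath+HF 38w, and 8.57, 9.19 and 8.45 in basal diet 38w. Replicate 1 of Ath+HF 68w lay just under the lowest array of Ath+HF+BCAA 68w, and replicate 2 of basal diet 38w lay within that group's range. Ifit3 values were 9.73, 9.72 and 9.88 in Ath+HF+BCAA 68w, 9.45, 9.02 and 9.04 in Ath+HF 68w, 9.38, 9.21 and 9.54 in Ath+HF+BCAA 38w, 9.67, 9.48 and 9.03 in Ath+HF 38w, and 9.26, 9.91 and 9.01 in basal diet 38w. The highest Ifit3 value of all was again replicate 2 of basal diet 38w. Ifit3 has a near-identical copy, Ifit3b, and signal may be shared between their probes. At 68w, Ifit1 was higher by 0.71 (SE 0.24, adjusted p = 0.0298 from limma) and Ifit3 by 0.61 (SE 0.20, adjusted p = 0.0294 from limma) in Ath+HF+BCAA than in Ath+HF. Both calls were lost without replicate 3 of Ath+HF+BCAA 68w and without replicate 2 or 3 of Ath+HF 68w (log2 differences of 0.52 to 0.61), and that of Ifit3 also without replicate 1 or 2 of Ath+HF+BCAA 68w (0.63 and 0.64).

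Usp18 was not called in any of the 9 comparisons. It had log2 values of 9.49, 9.46 and 9.99 in Ath+HF+BCAA 68w, 9.76, 9.11 and 10.02 in Ath+HF 68w, 9.61, 9.42 and 9.54 in Ath+HF+BCAA 38w, 9.53, 9.79 and 9.12 in Ath+HF 38w, and 9.73, 9.74 and 9.67 in basal diet 38w. All 5 groups overlapped with at least 1 other, and their means lay within 0.23 of each other. The difference at 68w was 0.02 with a 95% interval of -0.42 to 0.46, which does not reach the intervals of Oasl1 (1.68 to 2.28), Oasl2 (1.38 to 1.98), Rsad2 (1.15 to 1.96), Ifit2 (1.19 to 2.09) or Irf7 (0.82 to 1.53). Differences between these genes were not tested as such.

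**Figure D1:**
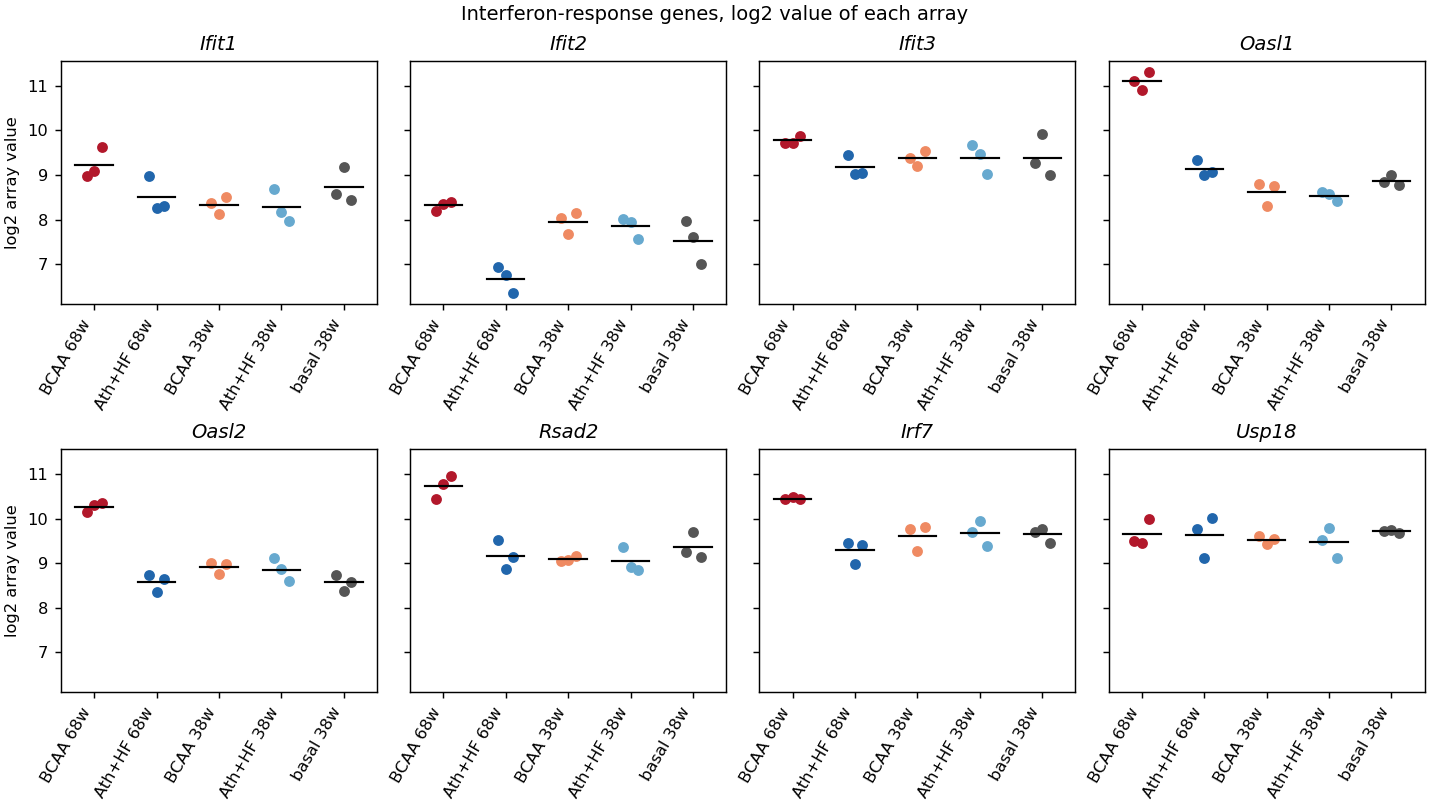
Log2 array value of 8 interferon-response genes on each of the 15 arrays, grouped by label (BCAA stands for Ath+HF+BCAA), with a point for each array and a bar for the group mean. In Oasl1, Oasl2, Rsad2 and Irf7 the 3 arrays of Ath+HF+BCAA 68w lie above the other 12, in Ifit2 those of Ath+HF 68w lie below the other 12, and in Usp18 the group means lie within 0.23 of each other.

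At 38w, none of the 8 genes was called in any comparison. In Ath+HF+BCAA 38w against Ath+HF 38w the log2 differences were -0.06 to 0.11, the groups overlapped in all 8 genes (4.6% of all genes did not overlap and were higher, 6.5% were lower), and the 95% intervals lay within -0.45 and 0.57. None of the 8 genes, and 0% of all genes, was called by limma in either direction, and at an unadjusted p under 0.05 there were 0 of the 8 genes, with 682 genes higher and 846 lower in all. In Ath+HF 38w against basal diet 38w, 0 of the 8 genes were called, against 3.05% of all genes called higher and 1.18% lower, and Oasl1 alone had an unadjusted p under 0.05, at -0.33 (adjusted p = 0.226 from limma). Oasl1 was also the 1 gene of the 8 without overlap there, against 11.4% of all genes without overlap and higher and 9.58% lower. In Ath+HF+BCAA 38w against basal diet 38w the count was also 0, against 3.67% higher and 1.82% lower, with Oasl2 alone under an unadjusted p of 0.05, at 0.34 (adjusted p = 0.187 from limma). Oasl2 and Usp18, at -0.19, did not overlap there, against 10.6% of all genes without overlap and higher and 10.2% lower. A fit of the 38w arrays alone, added after the data had been seen, also called 0 of the 8 genes in these 3 comparisons.

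Each 68w group was also set against the 38w group of its own diet. In Ath+HF+BCAA 68w against Ath+HF+BCAA 38w, 5 of the 8 genes were higher, against 20.5% of all genes, and 0 were lower, against 18.3%. They were Oasl1 by 2.50 (SE 0.14, 5.65-fold, adjusted p = 1.36e-08 from limma), Rsad2 by 1.63, Oasl2 by 1.35, Ifit1 by 0.89 and Irf7 by 0.84. Arrays did not overlap in 7 of the 8 genes, Ifit2 and Ifit3 among them, against 28.2% of all genes higher and 24.3% lower. In Ath+HF 68w against Ath+HF 38w, 1 of the 8 genes, Oasl1, was higher, against 17.6% of all genes, and 1, Ifit2, was lower, against 20%. These 2 were also the ones without overlap, against 26.8% of all genes higher and 25.4% lower in this sense. With the array medians set equal 3 were lower, Irf7 and Oasl2 beside Ifit2, and with quantile normalization 1 was. The same 3 as with equal medians were lower without replicate 3 of Ath+HF 38w, the array with the lowest value of all 8 genes in its group.

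Set against basal diet 38w, 5 of the 8 genes were higher in Ath+HF+BCAA 68w, where 22.9% of all genes were called higher, and 0 were lower, against 21.8%. The same 5 did not overlap, against 29.1% of all genes higher and 27.1% lower. Oasl1 was higher by 2.24 (SE 0.14, 4.71-fold, adjusted p = 1.52e-08 from limma), Oasl2 by 1.69, Rsad2 by 1.37, Irf7 by 0.81 and Ifit2 by 0.79. Ifit1, at 0.49, and Ifit3, at 0.39, were not called, and both were called without replicate 2 of basal diet 38w (0.72 and 0.64, with adjusted p = 0.0273 and 0.0102 from limma). In Ath+HF 68w against basal diet 38w, only Ifit2 was called among the 8 genes. It was 1.8-fold lower (log2 difference -0.85, SE 0.21, adjusted p = 0.00587 from limma), where 19.1% of all genes were lower, and 19% higher. Ifit2 and Irf7 lay below all basal diet arrays and Oasl1 above them, against 23.7% of all genes lower without overlap and 26.4% higher. These comparisons share the basal diet arrays.

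The difference between the diets with and without BCAA at 68w was itself set against that at 38w in the same fit. It was larger at 68w for 5 of the 8 genes, by 1.91 for Oasl1, 1.63 for Oasl2, 1.53 for Ifit2, 1.5 for Rsad2 and 1.23 for Irf7 (log2, limma), against 12.9% of all genes called in this direction and 7.67% in the other. Ifit1, at 0.66, and Ifit3, at 0.62, were not called (adjusted p = 0.193 and 0.144 from limma), and Usp18 was at -0.02.

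**Figure D2:**
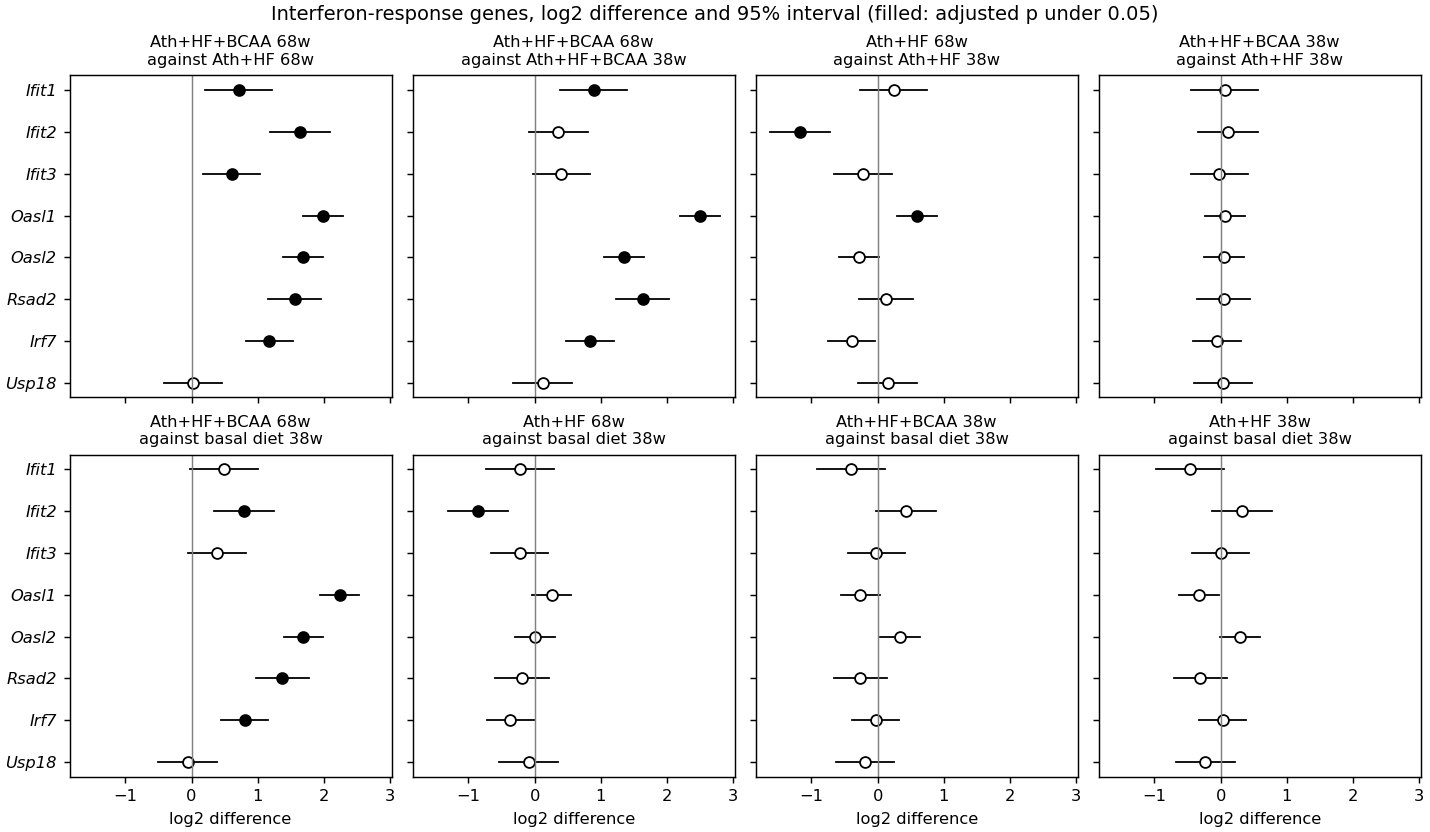
Log2 difference of 8 interferon-response genes in 8 comparisons, with 95% intervals from the fit to all 15 arrays, filled where the adjusted p was under 0.05. Filled points lie above 0 in Ath+HF+BCAA 68w against each of the other groups shown, Ifit2 lies below 0 in both comparisons of Ath+HF 68w shown with 38w groups, and no point is filled in comparisons between 38w groups.

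Macrophage and monocyte markers moved with part of this pattern. Their summed linear signal over 18 markers was 32381 to 40972 in Ath+HF+BCAA 68w, 6756 to 7338 in Ath+HF 68w, 20347 to 29213 in Ath+HF+BCAA 38w, 23917 to 29090 in Ath+HF 38w and 11444 to 12041 in basal diet 38w. Of the 18 markers 16 were higher and 0 lower in Ath+HF+BCAA 68w than in Ath+HF 68w, against 19.8% and 16.4% of all genes. At 38w, 14 were higher in each Ath+HF diet than in basal diet 38w, where none of the 8 response genes was called. The shares of all genes called higher there were 3.05% in Ath+HF 38w and 3.67% in Ath+HF+BCAA 38w. In these whole-liver samples, fewer cells of a type and less RNA per cell cannot be told apart. Ifit2 was lowest in the group where the markers were lowest. In Ath+HF+BCAA 38w and Ath+HF 38w, where the markers were bright, the 8 genes went both ways. The mean of Oasl1 was 8.61 and 8.54 there, against 8.87 in basal diet 38w, and that of Rsad2 was 9.10 and 9.04, against 9.35. The mean of Oasl2 was 8.91 and 8.86, against 8.57, and that of Ifit2 was 7.95 and 7.85, against 7.53. Markers of plasmacytoid dendritic cells, which make interferon alpha, summed to 1929 to 2137 in Ath+HF+BCAA 68w, 1229 to 1337 in Ath+HF 68w, 1271 to 1385 in Ath+HF+BCAA 38w, 1269 to 1401 in Ath+HF 38w and 1090 to 1225 in basal diet 38w over 7 markers. Of these 3 were higher in Ath+HF+BCAA 68w than in Ath+HF 68w, Lair1 by 1.84, Tcf4 by 1.11 and Siglech by 0.52, against 19.8% of all genes. The other 4 were not called, and the median log2 difference was 0.09, against -0.09 over all genes. Other markers were higher in the same comparison for endothelial cells in 6 of 8 and for stellate cells and fibroblasts in 7 of 9, against 19.8% of all genes, and for T and NK cells in 6 of 12, B cells in 2 of 6 and neutrophils in 2 of 8, with 0 lower in these lists. The T and NK cell count was 3 without replicate 2 of Ath+HF+BCAA 68w or replicate 3 of Ath+HF 68w, and the B cell count was 1 without replicate 2 of Ath+HF+BCAA 68w. Of 8 hepatocyte markers, 3 were lower (Apoc3 by -0.33, Hnf4a by -0.31 and Ttr by -0.29), against 16.4% of all genes, and 0 were higher. The median log2 difference of the 8 markers was -0.08, against -0.09 over all genes. Their summed linear signal was 82597 to 90468 in Ath+HF+BCAA 68w, against 92388 to 97243 in Ath+HF 68w. The count of 3 was 0 without replicate 2 of Ath+HF+BCAA 68w and 1 without its replicate 1 or without any one array of Ath+HF 68w. It was 2 with the array medians set equal and 1 with quantile normalization. The part of these cell types in the differences at 68w was not tested.

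**Figure D3:**
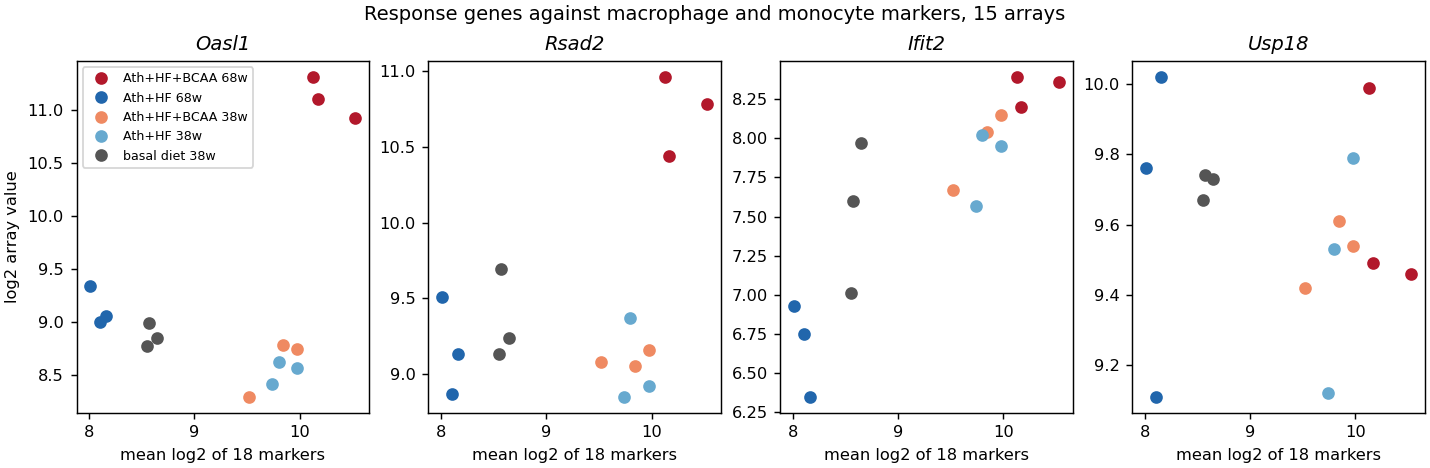
Log2 array value of Oasl1, Rsad2, Ifit2 and Usp18 against the mean log2 value of 18 macrophage and monocyte markers, with a point for each of the 15 arrays, colored by group. The 38w arrays of both Ath+HF diets have marker means of 9.52 to 9.98, against 8.55 to 8.65 in basal diet 38w. Oasl1 is at 8.30 to 8.79 in them and at 8.78 to 8.99 in basal diet 38w, and Ifit2 at 7.57 to 8.15 and at 7.01 to 7.97.

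Effectors of the response outside these genes followed in part. Of 33 other interferon-stimulated effectors measured, 19 were higher and 3 lower in Ath+HF+BCAA 68w than in Ath+HF 68w, against 19.8% and 16.4% of all genes. The median log2 difference of the 33 was 0.53. Mx1, a dynamin-like antiviral GTPase whose allele in C57BL/6 mice is defective, had group means of 7.80 in Ath+HF+BCAA 68w, 5.86 in Ath+HF 68w, 6.31 in Ath+HF+BCAA 38w, 6.47 in Ath+HF 38w and 6.22 in basal diet 38w, and was higher at 68w by 1.95 (SE 0.17, adjusted p = 3.81e-07 from limma). The ubiquitin ligase gene Trim30a (1.60), the helicase gene Ddx60 (1.45) and the Schlafen gene Slfn5 (1.34) followed, and Oas1a, Oas2 and Oas3, the enzymes that activate RNase L, were higher by 0.58, 1.14 and 0.61. Mx2 was at 0.53 and not called (adjusted p = 0.0842 from limma). Lgals9, a galectin, was at -0.53, and Parp9 and Dtx3l, whose proteins form a complex, were at -0.44 and -0.42, all called lower. These 3 were chosen after their values were seen, as were the lower genes of the lists that follow. Of 7 other Ifit and Oas genes, Ifit3b (1.16) and Oas1c (0.61) were higher and none was lower, against 19.8% and 16.4% of all genes. One (1) of the 2 calls was lost without any one of replicates 1 to 3 of Ath+HF 68w or replicate 2 or 3 of Ath+HF+BCAA 68w.

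Some effectors were higher at 38w. Oas2 had group means of 7.99 in Ath+HF+BCAA 38w and 7.95 in Ath+HF 38w, against 7.19 in basal diet 38w (differences of 0.80 and 0.75, adjusted p = 0.00788 and 0.0136 from limma). Oas1a and Ifi27l2a were also higher in both Ath+HF diets at 38w. Of the 33 effectors, 4 were called higher in Ath+HF 38w than in basal diet 38w, against 3.05% of all genes. In Ath+HF+BCAA 38w there were 3, against 3.67%, and none was lower in either diet (1.18% and 1.82% of all genes). Over 18 alternative settings the first of these counts ran between 0 and 6, and it was 1 without replicate 1 or 2 of Ath+HF 38w and 2 without replicate 2 or 3 of basal diet 38w. The second was 5 without replicate 1 of basal diet 38w.

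Of 6 measured genes of the receptor and ISGF3, 1 was higher and 1 lower in Ath+HF+BCAA 68w than in Ath+HF 68w, near the shares of all genes (19.8% higher and 16.4% lower). Jak1 was higher (0.54), Irf9 was lower (-0.36) and 4 were not called. Without replicate 1 of Ath+HF 68w, 2 were higher. Ifnar1 was at 0.18, Ifnar2 at 0.17 and Stat2 at -0.04. Irf9 had group means of 9.33 in Ath+HF+BCAA 68w, 9.69 in Ath+HF 68w, 9.20 in Ath+HF+BCAA 38w, 9.14 in Ath+HF 38w and 9.40 in basal diet 38w, so it was highest where Ifit2 was lowest.

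Of 17 nucleic acid sensors and adaptors measured, 10 were higher and 4 lower in Ath+HF+BCAA 68w than in Ath+HF 68w. All genes were called higher in 19.8% and lower in 16.4%. The median log2 difference of the 17 was 0.77. Tlr7, the endosomal receptor for single-stranded RNA, was higher by 2.15, Ikbke, an Irf-activating kinase, by 1.84, Unc93b1, which carries nucleic acid receptors to endosomes, by 1.46 and Irf5, a factor downstream of them, by 1.37. The 4 that were lower were Mavs (-0.83), the adaptor of the RNA helicase sensors, the Toll-like receptor adaptors Ticam1 (-0.57) and Myd88 (-0.42), and Irf3 (-0.34). Tlr7, Ikbke, Irf5 and Unc93b1 are also expressed by macrophages, whose markers were higher in the same comparison. The part of macrophages in these differences was not tested.

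Of 15 interferon genes measured, 0 were higher in Ath+HF+BCAA 68w than in Ath+HF 68w, against 19.8% of all genes. Ifnl2 (-0.35) and Ifna16 (-0.47), 2 of the 15, were lower (limma, adjusted p = 0.0361 and 0.0454), near the 16.4% of all genes called lower. Over the 15 genes the median log2 difference was -0.25, against -0.09 over all genes. The count lower was 0 without replicate 1 or 2 of Ath+HF+BCAA 68w or replicate 2 or 3 of Ath+HF 68w, 1 without replicate 3 of Ath+HF+BCAA 68w, and 6 in a fit of only the groups compared. Interferon genes were called higher in other comparisons. In Ath+HF 68w against basal diet 38w there were 3, Ifna5 (0.90), Ifnl2 (0.48) and Ifna14 (0.40), and in Ath+HF 68w against Ath+HF 38w there were 2, Ifna5 (0.64) and Ifna16 (0.55), against 19% and 17.6% of all genes. Ifna5 alone was higher in Ath+HF+BCAA 68w, by 0.65 than in basal diet 38w and by 0.54 than in Ath+HF+BCAA 38w. In these comparisons 22.9% and 20.5% of all genes were called higher. Ifna11 was lower in Ath+HF+BCAA 68w than in basal diet 38w (-0.44), where 21.8% of all genes were lower. That call was lost without any one array of Ath+HF+BCAA 68w or replicate 1 or 3 of basal diet 38w. With single arrays left out, the count against Ath+HF 38w was 0 without replicate 3 of Ath+HF 68w or replicate 2 of Ath+HF 38w and 1 without replicate 2 of Ath+HF 68w or replicate 1 of Ath+HF 38w. The Ifna5 call against basal diet 38w was lost without replicate 2 of Ath+HF+BCAA 68w, and the count against Ath+HF+BCAA 38w was 0 without replicate 1 or 2 of Ath+HF+BCAA 68w or replicate 1 of Ath+HF+BCAA 38w and 2 without replicate 2 of Ath+HF+BCAA 38w. Ifnb1 had group means of 5.25 in Ath+HF+BCAA 68w, 5.44 in Ath+HF 68w, 5.32 in Ath+HF+BCAA 38w, 5.22 in Ath+HF 38w and 5.13 in basal diet 38w, with a difference of -0.20 at 68w (adjusted p = 0.568 from limma). For 7 of these 15 genes every group mean was under 6 on the log2 scale, the limit taken here for a dim gene.

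Of 3 enzymes that attach Isg15, 2 were higher at 68w in Ath+HF+BCAA than in Ath+HF, against 19.8% of all genes. Uba7, the activating enzyme, and Herc6, the ligase in mice, were higher by 0.55 and 0.46, and Ube2l6, the conjugating enzyme, was at 0.02. The count of 2 was 1 without replicate 2 or 3 of either 68w group. Among 12 negative regulators 4 were higher and 1 was lower, Rnaseh2c (-0.52), against 19.8% and 16.4% of all genes. The smallest p was that of Samhd1, a nucleotide hydrolase, at 1.54. Rnaseh2c was not called without replicate 2 of Ath+HF 68w. Genes induced mainly by interferon gamma were higher in 12 of 19 and lower in 1, Iigp1 (-0.76), against 19.8% and 16.4% of all genes. Irf8 (1.83), Ciita (1.24), Gbp8 (1.76) and Gbp9 (1.51) led by p. Macrophage markers were higher in the same comparison, and their part here was not tested. In Ath+HF 68w against Ath+HF 38w, 9 of the 19 were lower, against 20% of all genes, and 1, Cxcl11 (0.69), was higher, against 17.6%. Without replicate 1 of Ath+HF 38w these counts were 5 and 2.

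**Figure D4:**
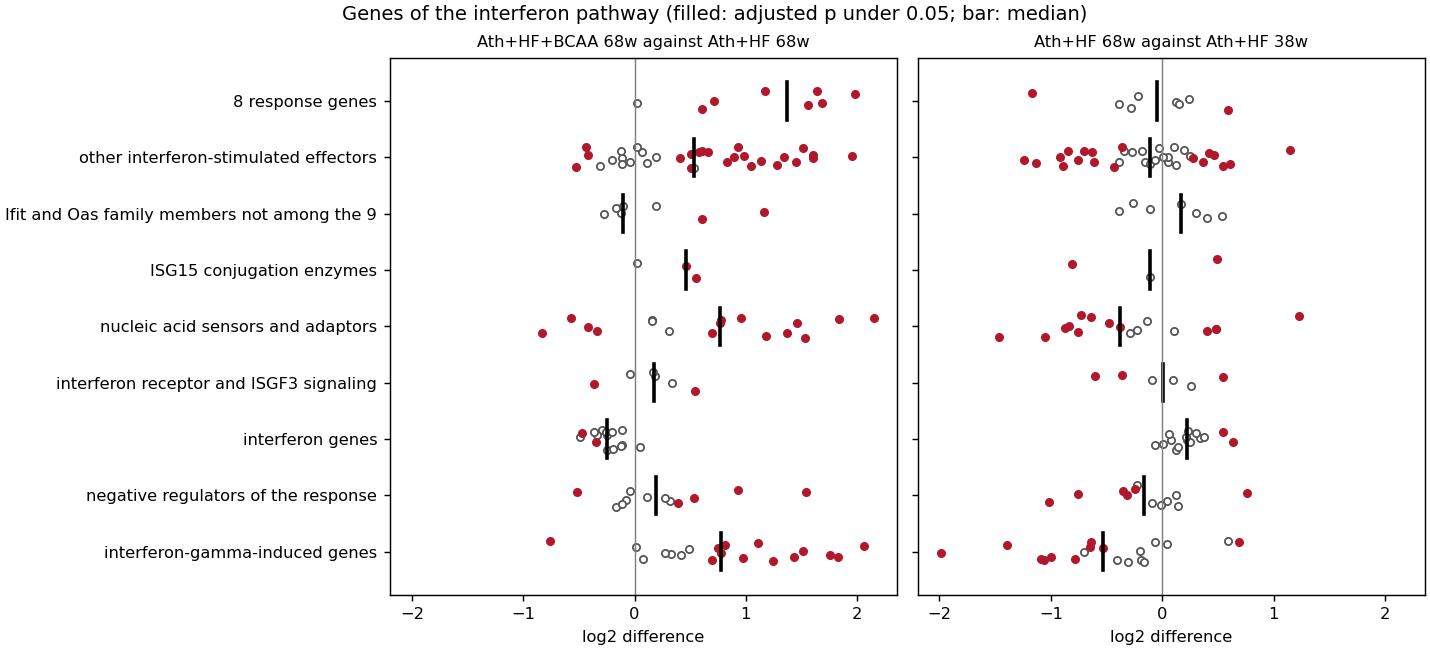
Log2 difference of each measured gene of the interferon pathway, by list, in Ath+HF+BCAA 68w against Ath+HF 68w (left) and in Ath+HF 68w against Ath+HF 38w (right), filled where the adjusted p was under 0.05, with a bar at the list median. On the left the 8 response genes have a median of 1.36, the sensors 0.77 and the interferon genes -0.25, and on the right most called sensors and interferon-gamma-induced genes lie below 0.

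Within groups the 8 genes rose and fell together from array to array. After each group's mean was taken off, all 28 pairs of genes had a correlation above 0 over the 15 arrays, from 0.13 (Ifit2 and Usp18) to 0.93 (Ifit1 and Rsad2), with a median of 0.54. These are descriptions, since the arrays share the same 5 group means. Correlations between pairs of other genes were not computed, so variation shared by many genes on an array cannot be told apart from variation of these 8. Usp18, flat between groups, still varied with the others inside them, at 0.69 with Irf7 and 0.63 with Oasl2. Replicate 3 of Ath+HF 38w had the lowest value of its group in 8 of the 8 genes, replicate 2 of Ath+HF 68w in 7, replicate 2 of Ath+HF+BCAA 38w in 7 and replicate 3 of basal diet 38w in 7, while replicate 3 of Ath+HF+BCAA 68w was the highest in 7. The SD within groups was 0.35 for Ifit1, 0.30 for Ifit2 and Usp18 and 0.18 for Oasl1 and Oasl2, against a median of 0.16 over all genes.

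**Figure D5:**
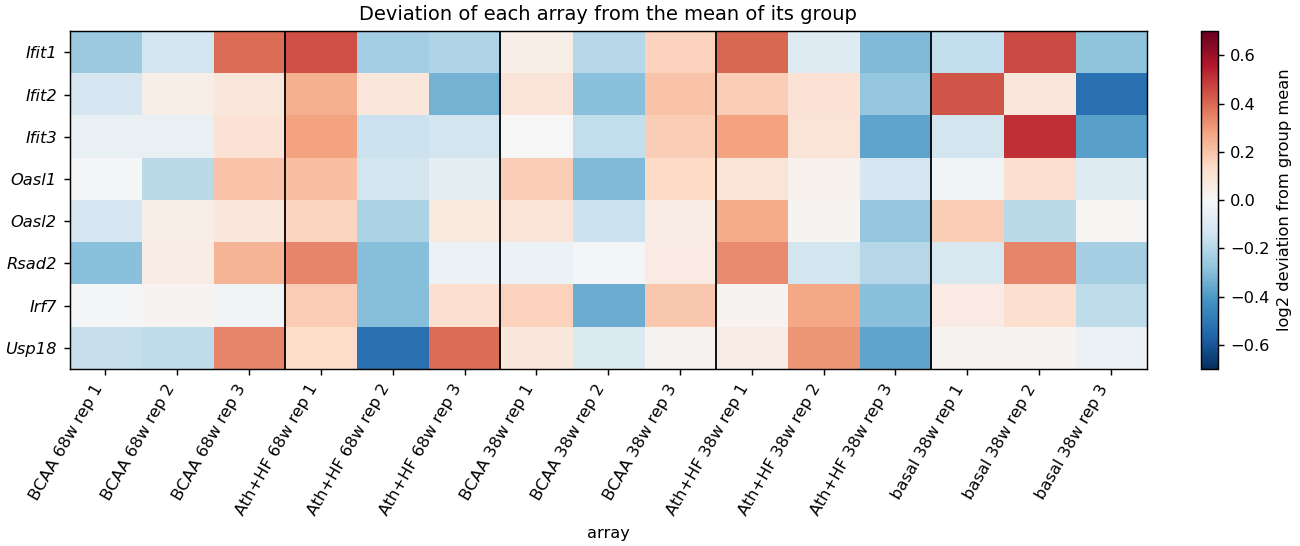
Deviation of each array from the mean of its group for 8 interferon-response genes, on the log2 scale, with arrays in columns, groups set apart by lines and red above the mean. Columns of one color show arrays on which most genes deviated together, such as replicate 3 of Ath+HF 38w, which was the lowest of its group in 8 of the 8 genes.

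Genes outside the 8 were ranked by how closely their levels followed the 8, as a description. Over all 15 arrays, the highest Pearson correlations with the mean scaled profile of the 8 genes were those of Gstm4 (0.935), a glutathione transferase, Rnf181, Pyroxd2, Sh2d4a and Cmpk2 (0.922), followed by BC052040, Mfsd12, Kcnk5, Pgap2 and Strada (0.909). Once group means were removed, the leading genes were Lcmt1 (0.933), Ppt2, Slc50a1, Rfesd and Defb43, then Tlr3 (0.889), the endosomal receptor for double-stranded RNA, Ifih1 (0.884), the cytosolic RNA sensor MDA5, Mettl7a1, Rtp4 (0.880), an interferon-stimulated gene, and Lrrc40. Tlr3, Ifih1 and Rtp4 are on the pathway lists used above, and all 3 were higher in Ath+HF+BCAA 68w than in Ath+HF 68w, by 1.18, 0.70 and 0.98.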

How the data were processed

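Whole-liver RNA was measured on 15 Affymetrix Mouse Gene 1.0 ST arrays in 5 groups. What was deposited are log2 values that the authors computed by RMA in Affymetrix Expression Console, as named in the submitters' processing notes, with versions not given in the sources used here. RMA corrects background, quantile normalizes and summarizes the probes of a transcript cluster. Arrays are thus scaled to each other, and a shift shared by all genes is removed at least in part. Medians of the deposited arrays still ran from 6.91 to 7.16 on the log2 scale. Of 35556 clusters, 21789 had 1 gene symbol, 1621 several and 12146 none in the annotation used here. The brightest single-symbol cluster stood for each gene. limma (version 3.58.1, R 4.3.3) was fitted to all 15 arrays with lmFit and eBayes (10 residual degrees of freedom), and p-values of each of 9 comparisons were adjusted by the Benjamini-Hochberg method over 19938 genes. The members and gene lists were chosen with earlier results of these data known. Named genes are the 9 members, the 4 called genes of a list with the smallest p, 11 fixed pathway genes and the 10 closest in profile by each measure. The fit was tested on simulated data. Alternatives were other gene summaries, filters, scalings, variance models, samples and tests, the methods' analysis of variance (Bonferroni), and each array left out.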

Additional observations from a re-analysis of the deposited data

Results flagged for a closer look

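For 5 of the 8 measured genes the difference between Ath+HF+BCAA and Ath+HF was larger at 68w than at 38w by the test of that difference itself (limma, adjusted p under 0.05). On the log2 scale it was larger by 1.53 for Ifit2, 1.23 for Irf7, 1.5 for Rsad2, 1.91 for Oasl1 and 1.63 for Oasl2, with adjusted p-values of 0.00171, 0.00146, 0.000786, 7.56e-06 and 3.08e-05 from limma. At 38w these genes differed by 0.11, -0.06, 0.05, 0.07 and 0.05 between the diets. Summed macrophage and monocyte markers were 32381 to 40972 in Ath+HF+BCAA 68w against 6756 to 7338 in Ath+HF 68w, and 20347 to 29213 in Ath+HF+BCAA 38w against 23917 to 29090 in Ath+HF 38w, and their part in the difference was not tested.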

How the results depend on the processing

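Of 320 counts of called members under alternative settings, 309 stayed within 1.5 times and 11 did not. Counts that were 0 and stayed 0 are among the 309, and a fall from 7 to 5 also counts as staying. Of 455 values of single members 421 kept their side of the threshold, 24 lost a call, 10 gained one and 0 changed sign. With the array medians set equal, members lower in Ath+HF 68w were 2 against basal diet 38w (Irf7 joining) and 3 against Ath+HF 38w (Irf7 and Oasl2 joining). With array weights they were 2 and 2, and with quantile normalization 1 and 1. Setting the medians equal moved the median difference of all genes to -0.14 for Ath+HF 68w against basal diet 38w, where the deposited values gave 0.05. For Ath+HF+BCAA 68w it moved to -0.18, where they gave 0.01. Under the analysis of variance of the methods, by Bonferroni over the groups, 0 members were lower in Ath+HF 68w than in basal diet 38w. With its p-values also adjusted over genes that count was 0, those in Ath+HF 68w against Ath+HF 38w were 0 higher and 0 lower, and 3 members were higher in Ath+HF+BCAA 68w than in basal diet 38w and 3 than in Ath+HF+BCAA 38w. The cause was not tested. Ifit1 and Ifit3 lost their calls between the 68w groups when all transcript clusters were tested (adjusted p = 0.0604 and 0.0581 from limma) and under both forms of the analysis of variance.

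With each array left out in turn, members higher in Ath+HF+BCAA 68w numbered 5 to 7 against Ath+HF 68w, 5 to 7 against basal diet 38w and 5 each time against Ath+HF+BCAA 38w, and members lower in Ath+HF 68w than in Ath+HF 38w numbered 1 to 3. The BCAA difference at 68w was called larger than that at 38w for 5 members under all 21 alternatives run for it. The analysis of variance, in either form, was not among them. Same-numbered arrays did not deviate together (correlations of -0.16 to 0.18 over 30 pairs), so the numbers were not taken to pair samples. With the replicate block, 43 of 43 results kept their call (for Ifit1 between the 68w groups, 0.71 with an adjusted p of 0.0395 from limma). The fit of the 38w arrays alone, chosen after seeing the data, left the members' counts at 0 and moved 11 of 96 counts of lists. Signal over background limits the interferon genes, 7 of 15 of which were under 6 in every group.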
